A study of Mus musculus with 2 samples.

Results

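The 10 genes described here encode receptor chains through which CD8+ T cells sense interleukins: Il2ra, Il2rb, Il2rg, Il4ra, Il7r, Il15ra, Il21r, Il18r1, Il18rap and Il6ra. They were taken by name, as all gene spots on the array that carry 1 of these symbols, out of 27597 genes with a probe. Together they had 18 probes, and 9 of the 10 were measured, meaning that on both arrays a probe stood well above background in its knockout channel, or on both in its wild-type channel. Il2ra was not measured. The RNA came from naive CD8+ T cells, sorted for low CD44 and low CD25 to a purity of more than 90% per the labels. In the Bcl11bF/F/dLck-iCre mice, floxed alleles of Bcl11b, which encodes a zinc-finger factor that T cells need for their identity, are excised by an iCre recombinase under the distal Lck promoter, which acts late in T cell development. These knockout mice were set against wild type mice, both on the C57BL/6 background; age, sex and the number of mice per sample are not given in the sources used here. Each of 2 two-colour Agilent arrays paired 1 knockout sample in Cy5 with 1 wild-type sample in Cy3, and the labels call the pairs biological replicates 1 and 2.

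Most of these receptors belong to the common gamma chain family. Il2rg encodes the shared chain, which joins a private chain for each cytokine and passes the signal on through the kinases JAK1 and JAK3 to STAT factors. IL-7 and IL-15 maintain naive and memory CD8+ T cells, and IL-2 drives their expansion after antigen contact. The IL-18 receptor is of another family, related to the IL-1 receptor, and signals through MyD88 to NF-kappaB; together with IL-12 it can elicit interferon-gamma from memory CD8+ T cells and natural killer (NK) cells. The IL-6 receptor alpha chain signals through the partner chain gp130.

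The members lie on 6 chromosomes, and 6 of them form neighbouring pairs. In the RefSeq annotation of GRCm38.p6 no protein-coding gene stands between Il18r1 and Il18rap on chromosome 1, between Il2ra and Il15ra on chromosome 2, or between Il4ra and Il21r on chromosome 7. RefSeq promoter sequences of that build, 250 bases before to 50 bases from the start on, were matched by symbol for 9 of the 10 genes, in 12 windows. The stretches that precede the annotated genes Il18r1, Il18rap and Il7r are shown because these 3 genes had the highest ratios of the members on array 1. Capitals mark a TCF motif (CTTTGA, here as its reverse complement) in Il18rap and a STAT motif (TTCNNNGAA) in Il7r.
Il18r1, chr1:40465302-40465551, plus strand: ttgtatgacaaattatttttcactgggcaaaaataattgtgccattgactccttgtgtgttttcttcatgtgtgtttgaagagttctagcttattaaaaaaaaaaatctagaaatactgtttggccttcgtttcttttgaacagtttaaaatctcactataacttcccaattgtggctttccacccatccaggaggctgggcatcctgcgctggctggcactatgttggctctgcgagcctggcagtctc
Il18rap, chr1:40515112-40515361, plus strand: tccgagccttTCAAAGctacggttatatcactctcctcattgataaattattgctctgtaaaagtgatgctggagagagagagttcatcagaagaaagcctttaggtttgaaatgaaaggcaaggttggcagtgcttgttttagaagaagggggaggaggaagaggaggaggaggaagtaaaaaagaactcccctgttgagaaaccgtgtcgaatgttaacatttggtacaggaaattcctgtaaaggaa
Il7r, chr15:9529942-9530126, minus strand: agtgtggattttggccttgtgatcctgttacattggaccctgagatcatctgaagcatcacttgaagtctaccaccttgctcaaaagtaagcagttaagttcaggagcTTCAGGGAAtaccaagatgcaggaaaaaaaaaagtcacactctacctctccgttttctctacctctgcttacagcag

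Both strands of the windows were searched for 10 short motifs, and no match overlapped a match of another motif. The RUNX motif TGTGGT was in windows of 5 of the 9 genes, Il2rg, Il7r, Il21r, Il18r1 and Il18rap. It was in 5 of their 12 windows and in 16.8% of 32851 RefSeq promoter windows. The bases around each match are given to let them be compared, with the motif or its reverse complement in capitals.
Il18r1, chr1:40465630-40465659, plus strand: acaggtggttctTGTGGTtgagtagacagg
Il18rap, chr1:40515381-40515410, plus strand: caactaaacctaACCACAacccctttcttg
Il7r, chr15:9529856-9529885, minus strand: tagttccctgtcTGTGGTttagcaggcaca
Il2rg, chrX:101268465-101268494, minus strand: ggaatgatggtgTGTGGTgggggtgggtgt
Il21r, chr7:125603384-125603413, plus strand: ggggcactgtttACCACAtcccctccccac
The STAT motif was in 2 of the 12 windows and in 8.3% of all, once for Il7r and at 2 places before another annotated start of Il18r1.
Il7r, chr15:9529999-9530028, minus strand: gttcaggagcTTCAGGGAAtaccaagatgc
Il18r1, chr1:40465777-40465806, plus strand: tcggggttagTTCTGGGAActgtggagctc
Il18r1, chr1:40465844-40465873, plus strand: agtacaggtcTTCCCAGAActgaaagcttg
The other motifs were ETS (CCGGAA, 2 of 12 windows against 14.9% of all), T-box (AGGTGT, 3 against 13.7%), the motif of GATA factors (AGATAA, 1 against 11.2%), NF-kappaB (GGGANTTCC, 0 against 1.68%), AP-1 (TGANTCA, 1 against 7.81%), TCF (CTTTGA, 2 against 16%), E-box (CAGCTG, 2 against 16.3%) and TGACCA, the motif of the human paralogue BCL11A (0 against 13.6%). A match is a stretch of letters and not a binding site.

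Of the 9 measured genes, 5 had higher signal in the knockout on both arrays, in the order Il18r1, Il7r, Il2rb, Il18rap and Il2rg of their mean ratio. The other 4, Il4ra, Il21r, Il15ra and Il6ra, had lower signal on both. None passed the test across all genes (limma, Benjamini-Hochberg adjusted p under 0.05 over 9273 measured genes), where 1.49% of genes passed. Of those, 115 (1.24% of all) were higher and 23 (0.248%) lower, a split that became 63 and 1 with median centring of each array and 25 and 14 where both channels had to be above background. At an unadjusted p under 0.05, 2 of the 9 were past, Il18r1 and Il7r, against 9.75% of all genes. The same 2 were past 2-fold in the mean, as were 9.08% of all genes. Over all measured genes 30.9% were above 0 on both arrays, 30.8% below 0 on both and 38.2% had opposite signs, which none of the 9 had. The median log2 ratio of the 9 was 0.31 on array 1 and 0.21 on array 2, beside 0.05 and -0.01 over all genes. The median of the mean ratios was 0.32, and became -0.072 (-0.16 on array 1 and 0.09 on array 2) where both channels had to be above background, which drops Il18rap. Of the 9, 8 were well above background in all 4 samples, and Il18rap was in 3.

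**Figure D1:**
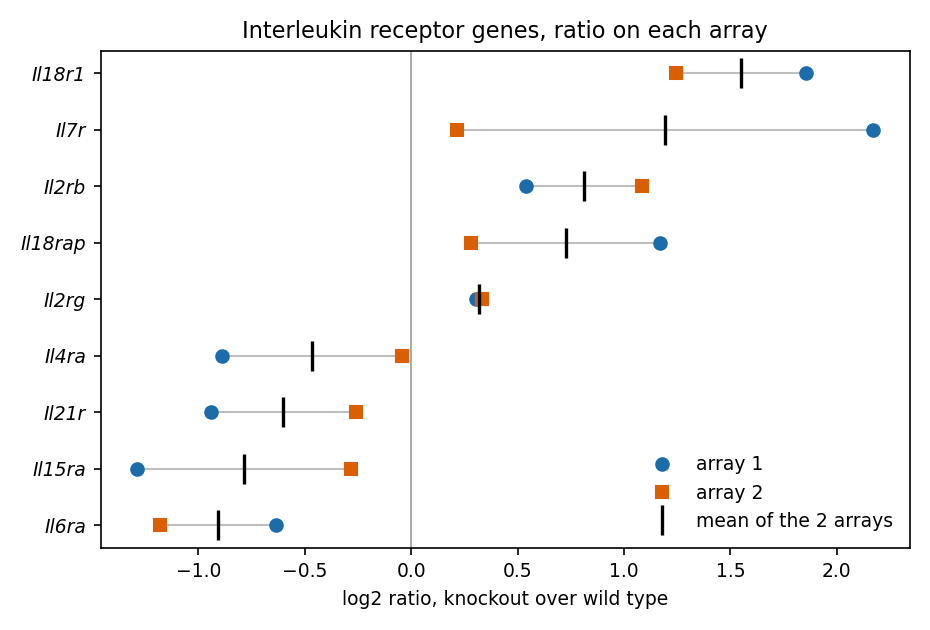
Log2 ratio of knockout over wild type on array 1 (circles) and array 2 (squares) for the 9 measured receptor genes, with the mean of both as a bar. The 5 upper genes are above 0 and the 4 lower genes below 0 on both arrays, and Il7r has the widest gap between arrays.

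A log2 ratio here compares the Cy5 (knockout) with the Cy3 (wild-type) signal of 1 probe after background correction and a loess curve that removes the intensity-dependent dye difference of each array. Levels are given as log2 intensity after the arrays were brought to the same distribution of mean intensity, and can be compared between samples for 1 probe but not between genes. With 2 arrays the model gave every gene the same standard error of 0.50, so only a mean ratio of at least 1.68 in size could pass. Knockout RNA was in the same dye on both arrays, so a dye effect of a probe and the effect of the knockout cannot be told apart. Array 1 spread far more widely, with 27% of genes past 2-fold there and 2.84% on array 2. Bcl11b itself had log2 ratios of -1.45 and -1.73 (mean -1.59 ± 0.19, SD, n = 2; adjusted p = 0.075, limma), and its probe was not placed against the floxed exon here.

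Il18r1, which encodes the chain that binds IL-18, had the highest mean ratio of the 9. Its level was 13.4 and 13.77 in the knockout samples of arrays 1 and 2, against 11.54 and 12.53 in the wild-type samples. Both knockout samples were above both wild-type samples. The log2 ratio was 1.85 on array 1 and 1.24 on array 2, with a mean of 1.55 ± 0.43 (SD, n = 2; 95% interval from the model 0.57 to 2.52; adjusted p = 0.0911, limma). Il18r1 was the only 1 of the 9 past 2-fold higher on both arrays, as were 1.12% of all genes, and ranked 157 of 9273 by its mean ratio. The array design places its single probe on chromosome 1 of the mm8 build from 40445242 to 40445301, plus strand. Whether the probes lie in exons or UTRs was not analysed here.

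Il18rap encodes the accessory chain that completes the signalling receptor. Its probe from 40493430 to 40493489 on the same chromosome gave 9.94 and 10.65 in knockout samples, against 8.77 and 10.37 in wild-type samples. The wild-type sample of array 1 was not well above background, and the knockout value of array 1 lay below the wild-type value of array 2, so the groups overlap. The ratio was 1.17 on array 1 and 0.28 on array 2 (mean 0.73 ± 0.63, SD, n = 2; adjusted p = 0.742, limma). A second probe of Il18rap was not well above background in any sample. Il18rap was thus measured through its knockout channel alone, which favours a ratio above 0. Both genes of this pair, Il18r1 and Il18rap, were above 0 on both arrays. Both genes of the other measured neighbouring pair, Il4ra and Il21r, were below 0 on both arrays. Over all 3890 neighbouring pairs of measured genes in the annotation, 22.4% had the same direction on both arrays.

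Among 11 signal adaptors of the IL-18 receptor, 7 were measured and none passed; 4 were above 0 and 2 below 0 on both arrays. Tab2, an adaptor of the kinase TAK1, had 1.55 and 0.19 with a wild-type signal not well above background on array 1, and its partner Tab1 had -1.30 and -0.34. Sigirr, which encodes an inhibitory receptor of the family, had -1.01 and -0.20. Irak2, a kinase of the pathway that was not well above background in wild-type samples, was at least 1.48-fold higher without passing. That bound compares the mean knockout level with the higher, per array, of the dim probe's own signal and the lowest signal called well above background.

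Il7r encodes the alpha chain of the IL-7 receptor, CD127, which naive T cells need for survival. Its level was 14.07 and 14.01 in the knockout samples of arrays 1 and 2, against 11.9 and 13.79 in the wild-type samples. The knockout samples were nearly equal and both above the wild-type samples, which differed widely from each other. The ratio was 2.17 on array 1 and 0.21 on array 2. Its mean was 1.19 ± 1.38 (SD, n = 2; 95% interval from the model 0.22 to 2.17; adjusted p = 0.314, limma). The interval uses the standard error shared by all genes, so the SD of Il7r does not enter it. A second measured probe of Il7r, from 9455913 to 9455972 on chromosome 15 (mm8), gave 2.45 and 0.21, although its wild-type signal was not well above background on array 1. The gap between arrays was therefore present in both measured probes of Il7r, of which the brighter lies from 9450946 to 9451005 on the minus strand. The remaining probe of Il7r was not well above background in any sample.

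**Figure D2:**
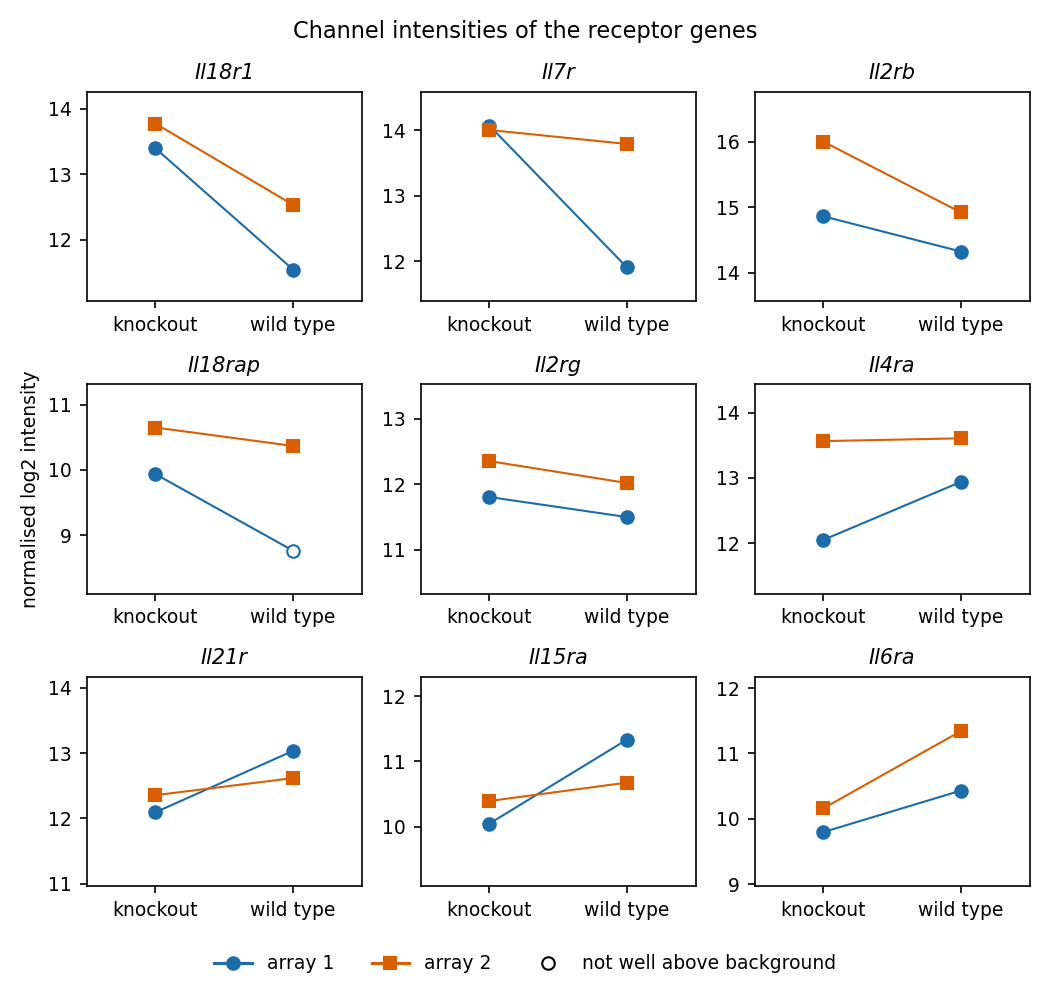
Normalised log2 intensity of the 9 measured receptor genes in knockout (left) and wild-type samples (right), with a line joining the 2 samples of an array and an open symbol for a signal not well above background. Each panel spans the same range of log2 units. The knockout samples of Il7r lie together at 14.07 and 14.01, whereas its wild-type samples lie at 11.9 and 13.79.

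Il2rb and Il2rg encode the signalling chains of the IL-2 and IL-15 receptors. Il2rb (CD122) gave 14.86 and 16 in knockout samples, against 14.32 and 14.92 in wild-type samples. The wild-type sample of array 2 was above the knockout sample of array 1, so the groups overlap, but on each array the knockout was higher. Its ratio was 0.54 on array 1 and 1.08 on array 2 (mean 0.81 ± 0.39, SD, n = 2; 95% interval -0.16 to 1.79; adjusted p = 0.674, limma). The probe lies on chromosome 15 from 78307934 to 78307993, minus strand (mm8). Il2rb, Il18r1 and Il6ra were the 3 of 9 measured genes past 2-fold on array 2, where 2.84% of all genes were. On array 1, where 27% of all genes were, 4 of the 9 were past it: Il18r1, Il7r, Il18rap and Il15ra.

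Il2rg, the common gamma chain gene, had 11.8 and 12.35 in knockout samples, against 11.5 and 12.02 in wild-type samples. Its ratios were the closest of the 9 to each other, 0.31 on array 1 and 0.34 on array 2 (mean 0.32 ± 0.02, SD, n = 2; 95% interval -0.65 to 1.29; adjusted p = 0.933, limma). Il2rg is X-linked, with its probe between 97468402 and 97468915 of the mm8 X chromosome, and the samples differ in sex-linked RNA. The Y-linked gene Ddx3y was well above background only in the knockout sample of array 1 and the wild-type sample of array 2. Xist, the RNA of the inactive X chromosome, was so only in the knockout sample of array 2. The part of sex in these ratios was not tested.

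Il2ra encodes CD25, the alpha chain that gives the IL-2 receptor high affinity and was gated on in the sort. None of its 4 probes was well above background in any of the 4 samples. Their mean signals were 846 to 930 in the knockout sample and 797 to 939 in the wild-type sample of array 1, below the medians of 985 and 1087 of the negative control spots in those channels. On array 2 they were 1509 to 1672 in the knockout sample and 899 to 957 in the wild-type sample, again below the negative control medians of 1865 and 1120. No fold change is given for Il2ra.

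Il15ra, the neighbour of Il2ra, encodes the chain that binds IL-15 and can present it to other cells. Its measured probe, which the array design places on chromosome 2 between 11641979 and 11648480, gave 10.05 and 10.4 in knockout samples, against 11.34 and 10.68 in wild-type samples. Both knockout samples were below both wild-type samples. The ratio was -1.29 on array 1 and -0.28 on array 2 (mean -0.78 ± 0.71, SD, n = 2; 95% interval -1.76 to 0.19; adjusted p = 0.696, limma). A second probe of Il15ra was not well above background in any sample.

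Il4ra and Il21r are neighbours on chromosome 7, with probes from 125368771 to 125368830 and from 125423785 to 125423844. Il4ra encodes the chain that binds IL-4 and also takes part in the IL-13 receptor. It gave 12.05 and 13.56 in knockout samples, against 12.94 and 13.61 in wild-type samples, and the groups overlap. The ratio was -0.89 on array 1 and -0.04 on array 2 (mean -0.47 ± 0.60, SD, n = 2; adjusted p = 0.901, limma).

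Il21r encodes the private chain of the IL-21 receptor. It gave 12.09 and 12.36 in knockout samples, against 13.03 and 12.62 in wild-type samples. Both knockout samples were below both wild-type samples. The ratio was -0.94 on array 1 and -0.26 on array 2 (mean -0.60 ± 0.48, SD, n = 2; adjusted p = 0.834, limma). When the loess step was replaced by median centring, the means of Il4ra and Il21r turned to 0.45 and 0.27, while the median of all measured genes moved to 0.68, above both.

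Il6ra encodes the alpha chain of the IL-6 receptor, CD126, which naive T cells carry. It had the lowest mean of the 9. Its level was 9.80 and 10.16 in knockout samples, against 10.43 and 11.34 in wild-type samples, with no overlap. The ratio was -0.64 on array 1 and -1.18 on array 2 (mean -0.91 ± 0.39, SD, n = 2; 95% interval -1.88 to 0.07; adjusted p = 0.58, limma). Its probe lies from 89962748 to 89962807 on chromosome 3 (mm8, minus strand). Another probe of Il6ra, well above background in the wild-type sample of array 2 only, gave -0.18 and -1.09. Il6st, the gene of the partner chain gp130, had 0.04 and -0.30.

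Counted over the 4 samples of a probe, both knockout samples were above both wild-type samples for 2 of the 9 genes, Il18r1 and Il7r, and for 21.2% of all genes. They were below both for 3, Il21r, Il15ra and Il6ra, and for 20.8% of all genes. For the remaining 4 the groups overlapped.

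**Figure D3:**
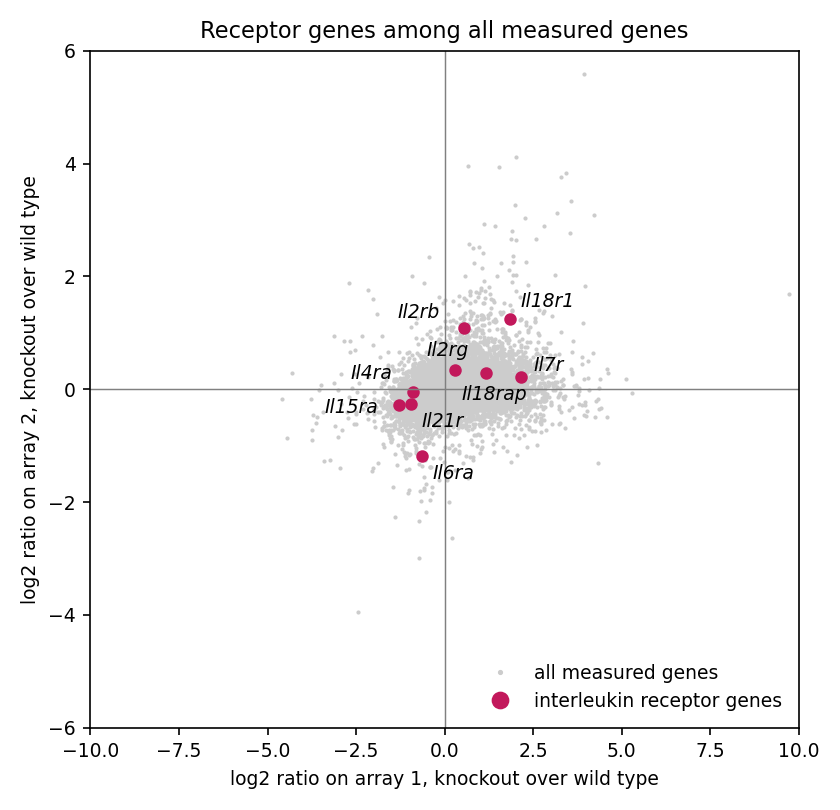
Log2 ratio of knockout over wild type on array 1 (horizontal axis) against array 2 (vertical axis) for all 9273 measured genes in grey and the 9 receptor genes in colour. Il18r1 is past 1 on both axes, Il7r and Il18rap are past 1 on array 1 alone, and Il2rb is past 1 on array 2 alone.

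No gene passed in any list of receptors, ligands or JAK-STAT transducers around the members. The medians given for lists are of mean log2 ratios, and that of all genes was 0.04. Of 29 other receptors of the same cytokine families 14 were measured, 3 above and 3 below 0 on both arrays, with a median of 0.07. Il10ra, the ligand-binding chain of the IL-10 receptor, had 1.19 and 0.59, and its partner Il10rb had 1.26 and 0.26. Il12rb1, a chain shared by the IL-12 and IL-23 receptors, had 0.29 and 0.72. Crlf2, the chain that binds TSLP and pairs with the IL-7 receptor alpha chain, had -1.16 and -0.27. None of 11 ligand genes, from Il2 to Tslp, was measured.

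Of 26 JAK-STAT transducers and their inhibitors 21 were measured, 8 above and 4 below 0 on both arrays, with a median of 0.19. Jak1, the kinase bound by the private chains of this family, had 0.82 and 0.62. Stat6, which acts downstream of IL-4, had 0.63 and 0.27, and Stat4, downstream of IL-12, 0.52 and 0.23. The inhibitor Pias4 had -0.40 and -0.16, with a knockout signal not well above background on array 2.

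Among 14 targets of common gamma chain cytokines 13 were measured and none passed, with 9 above and 1 below 0 on both arrays and a median of 0.43. The cyclin genes Ccnd3 (0.63 and 0.85) and Ccnd2 (2.39 and 0.44) and the kinase gene Pim2 (0.61 and 0.66) were among the 9 above. Prf1, the gene of perforin, was the 1 below 0, at -0.55 and -1.25.

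Of 17 factors known to control transcription of the members in T cells 15 were measured and 2 rose, against 1.24% of all genes, with a median of 0.69. The median was 1.22 on array 1 and only 0.18 on array 2. Of the 15, 9 were above and 1 below 0 on both arrays, and the rest had opposite signs. Id2, whose product holds E proteins in check, rose with 2.29 on array 1 and 1.20 on array 2 (mean 1.75 ± 0.77; adjusted p = 0.0348, limma). Ets1 passed with 4.37 on array 1 and 0.02 on array 2, so its call rests on array 1 and on a wild-type signal not well above background there. Foxo1, which drives Il7r in naive T cells, had 0.84 and 0.39. Tbx21 (T-bet) and Eomes, which drive Il2rb in CD8+ T cells, had 1.31 and 0.53, and 0.63 and 0.74. Gata3 had 2.03 and 0.97 without passing, with a wild-type signal not well above background on array 1.

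Il2rb and both IL-18 receptor genes are also expressed by NK cells. Of 12 NK cell markers 9 were measured, 4 rose, against 1.24% of all genes, and 8 were above 0 on both arrays, against 30.9%. Most of the 9 were measured through the knockout channel alone, which favours ratios above 0 and a higher knockout sum. Their summed intensity was 27307 to 102355 in knockout samples and 8926 to 12089 in wild-type samples. Fcer1g, an adaptor that myeloid cells also express, was at least 20.6-fold higher (adjusted p = 5.17e-18, limma), Cd244a at least 6.45-fold. Klrb1c, dim in the wild-type sample of array 1, and Tyrobp had mean log2 ratios of 3.07 ± 1.49 and 2.73 ± 1.71. Ncr1, the marker most restricted to NK cells and related innate cells, had -0.20 and 0.86. Its wild-type signal was not well above background on array 2. Itga2 and Klre1 were not measured. More cells of a type and more RNA per cell cannot be told apart in such bulk samples. The part of NK cells in the receptor ratios was not tested.

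Of 16 macrophage and dendritic cell markers 12 were measured and 6 rose, against 1.24% of all genes. On both arrays 10 were above 0, as were 30.9% of all genes, and 1, Cd14, was below 0 (-0.40 and -0.08). The knockout signal of Cd14 was not well above background on array 2. Most of the 12 were measured through the knockout channel alone, which favours ratios above 0 and a higher knockout sum. Their summed intensity was 30520 to 31643 in knockout samples and 7792 to 13961 in wild-type samples. C1qc, of the complement component C1q, was at least 4.37-fold higher, Adgre1, a macrophage surface marker, at least 3.70-fold and Csf1r, the receptor of the macrophage growth factor CSF-1, at least 1.93-fold. Hmox1, the gene of heme oxygenase, had 1.94 and 2.02. Itgax (CD11c) had 2.29 and 2.26 and Lyz2 4.03 and -0.38, both with a wild-type signal not well above background on array 1, on which the call of Lyz2 rests. Cd68, Itgam, Lyz1 and Siglech were not measured, and the part of such cells in the receptor ratios was not tested. In the list of memory-like CD8+ T cells, which holds Il2rb itself, none of the 7 measured genes passed; Ccl5 had 1.02 and 1.76 and Ly6c1 -0.97 and -1.15. Their summed intensity was 218250 to 345717 in knockout samples and 235218 to 299698 in wild-type samples. Regulatory and helper T cells, which carry Il2ra or Il4ra, had 5 of 8 markers measured and Ikzf2 alone passed. Its wild-type signal was not well above background, and no fold is given. On both arrays 1 of the 5, Ikzf2, was above 0 and 2 were below 0, with a median of -0.24. These 2, Cd4 (-0.65 and -0.21) and Cd40lg (-0.39 and -0.08), had a knockout signal not well above background on array 2. Foxp3, Ctla4 and Zbtb7b were not measured, and the sum of the 5 was 17142 to 27976 in knockout samples and 15996 to 20182 in wild-type samples. Of 8 B cell markers 5 were measured and none passed, with summed intensities of 84738 to 86083 in knockout samples and 80647 to 98912 in wild-type samples. Of 7 erythroid and platelet markers 2 were measured and none passed. Of the defining CD8+ T cell markers all 8 on the array were measured and none passed. In both genotypes 7 of them were well above background on both arrays, and Themis was not in the wild-type sample of array 1. Of the 8, 5 were above 0 on both arrays and 0 below, with a median of 0.54 and Cd8b1 at 1.11 and 0.93. Their summed intensity was 366018 to 388223 in knockout samples and 236776 to 261488 in wild-type samples, which do not overlap, and the part of this in the receptor ratios was not tested.

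The genes with ratios most like those of Il18r1 were looked up by the distance between their pairs of ratios on the 2 arrays. Nearest were a transcript listed only as TC1605426 (1.78 and 1.21, distance 0.0815), Cers6, a ceramide synthase gene (1.90 and 1.39, distance 0.152), and Arl10, of the ARF-like GTPases (1.91 and 1.41, distance 0.18). Wild-type signal was not well above background on array 1 for TC1605426 and on either array for Arl10, so their ratios and distances are not exact and their place in this order is uncertain.

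**Figure D4:**
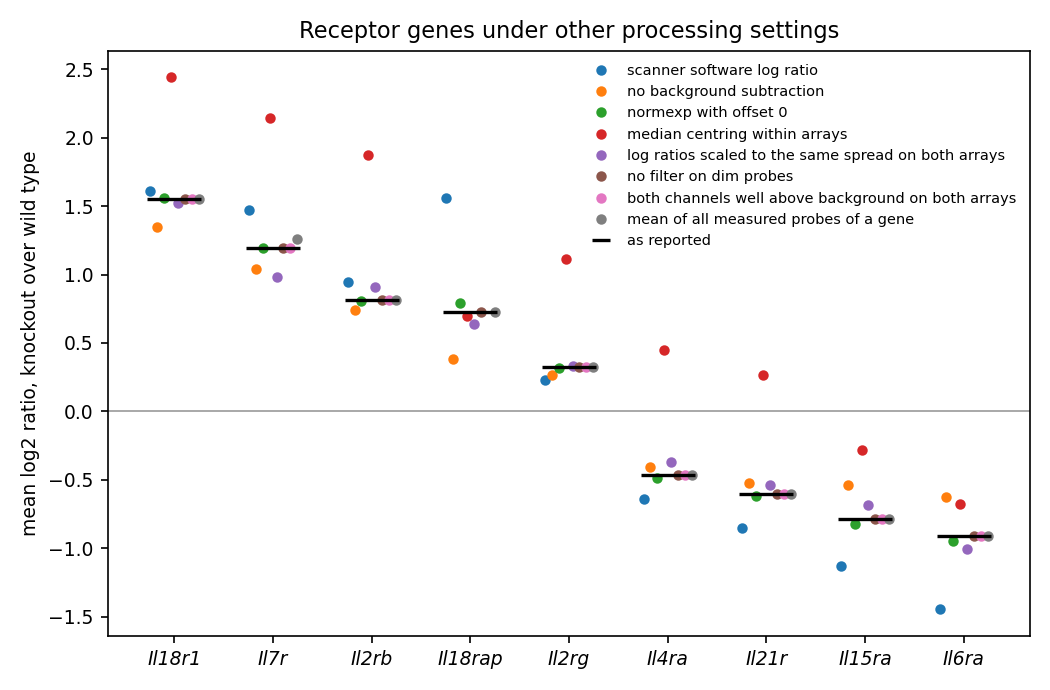
Mean log2 ratio of knockout over wild type for the 9 measured receptor genes as reported (bars) and under 8 other processing settings (dots). Median centring, which moves the median of all measured genes to 0.68, turns Il4ra (0.45) and Il21r (0.27) positive. The other 7 genes keep their side of 0 under these settings.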

How the data were processed

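RNA of knockout (Cy5) and wild-type (Cy3) cells was hybridised on 2 Agilent arrays. The submitters' processing notes name Feature Extraction 9.5.3.1. The deposited files give linear intensity values per spot (mean signal and median local background of each channel), not normalised, per the file headers. They also give the log10 ratio of red over green that the scanner software computed from signals it had corrected for background and dye, per the file headers. The deposited value table holds the same log10 ratios to within 0.005 at 45018 spots, with column medians of 0 and 0, so its scale and direction are known.

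Intensities were corrected with normexp (offset 50) and log2 ratios normalised by loess with limma 3.58.1 in R 4.3.3. Control and outlier spots had weight 0 in the loess curve and were dropped after it, and repeated spots were averaged. The brightest measured probe stood for its gene, which left 9273 genes. Levels are loess and Aquantile normalised log2 channel intensities. Mean ratios were tested two-sided with lmFit and eBayes and adjusted with Benjamini-Hochberg over all measured genes at 0.05. The fit was also run on simulated data. There all genes of an array had the same spread, so genes of unequal spread were not tested. P-values measure only a spread between these 2 arrays that the reported fit pooled over all measured genes. A gene's own spread does not enter them, and the number of arrays limits the precision. The median local background of a channel was at most 51.5, far below the medians of the negative control spots. Probe names were updated through RefSeq (24375 of 41174 by accession, 6301 by symbol, 2426 by an older symbol; 8072 kept their name). All members were named; other genes were named where they passed, or as up to 4 per list with the largest smaller ratio, or where a role in the text called for it (Il6st, Ncr1, Cd14, Themis, Ddx3y and Xist were chosen after their values were seen). Members, lists and tests were chosen with earlier results of these data known. The result of 1 marker list is not reported here. Alternatives changed background correction, normalisation, filter and probe rule, or left out an array. Both arrays lay on 1 slide and were scanned together.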

Additional observations from a re-analysis of the deposited data

How the results depend on the processing

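None of the 9 measured receptor genes passed under any of the 8 other settings with a test. Of 71 gene values under these settings 69 kept their direction. Only median centring turned any, Il4ra to 0.45 and Il21r to 0.27. Median centring also moved the median of all measured genes to 0.68, with 80.6% of them above 0. It gave Il7r 2.14, Il2rb 1.87 and Il2rg 1.12. The scanner log ratio gave Il18rap 1.56. The adjusted p of Il18r1 ranged from 0.0514 (both channels well above background on both arrays) to 0.633 (scanner log ratio), and its mean from 1.35 to 2.44. The median of the 9, 0.32, became 0.23 with the scanner log ratio and 0.69 with median centring, beside 0.68 over all genes there. It became -0.072 where both channels had to be above background, which drops Il18rap, and was 0.21 to 0.31 without an array. The 138 genes past the threshold became 35 with no background subtraction, 64 with median centring, 39 with both channels above background, and 0 with the scanner log ratio, with ratios scaled to the same spread and with no filter (574, 902 and 2478 at an unadjusted p under 0.05, limma). The weight that the fit gave to the pooled spread, its prior degrees of freedom, was 4.21, 4.89 and 1.96 in these last settings, in that order. It was infinite in the reported fit. The cause of the changes in number was not tested. No paired analysis was possible because each array already is the ratio of 1 knockout to 1 wild-type sample and the ratios form 1 group. Leaving out an array leaves no residual degrees of freedom, so those are values with no test.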
